A study of Mus musculus with 2 samples.

Results

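Asparagine, proline, glutamine, alanine, aspartate and cysteine can each be made by mammalian cells, and 8 genes encoding enzymes of these routes were examined in CT26 cells: Asns, Pycr1, Aldh18a1, Got1, Gpt2, Cth, Cbs and Glul. They were chosen by name, and all 8 were found among the 54680 loci of the gene table. CT26 is a mouse colon carcinoma line. In the knockdown group (shSetdb1) the cells were infected with a lentivirus carrying a short hairpin RNA against Setdb1, a histone H3 lysine 9 methyltransferase, and in the control group (shCtrl) with a lentivirus carrying the empty knockdown vector. Both were grown for 6 days in RPMI medium with serum, which supplies asparagine, proline, glutamine and cystine. The labels call the knockdown cells differentiated, give the control genotype as wild type, and do not say whether the knockdown cells were a pool or a clone. Each group had 1 library, so no difference below has a replicate check, and each describes these libraries and not the conditions.

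Asparagine synthetase and the proline, alanine and aspartate enzymes draw on glutamine and glutamate, which carry nitrogen through all of these pathways. When amino acids run short, the stress-induced transcription factor ATF4 is known to raise many of these genes, with Asns as the classical target. Cysteine is made from methionine through homocysteine and cystathionine, a route most active in liver, and many cultured cells instead import cystine through the transporter encoded by Slc7a11.

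The libraries held 18421604 (shCtrl) and 19045830 (shSetdb1) reads, recovered from the deposited values. Levels are in FPKM, read fragments divided by gene model length and by sequencing depth, and a ratio is the log2 ratio of (FPKM + 1), shSetdb1 over shCtrl, which understates differences of genes at low levels. A read ratio is taken relative to each library's own total, with a 95% exact binomial interval that covers counting error only, since PCR copies are not independent molecules. Setdb1 itself stood at 10.4 FPKM in shCtrl and 2.47 FPKM in shSetdb1, 23.7% of control. Its gene model overlaps Cers2 on the other strand, which had 12233 and 8639 reads, and the strand setting of the counting is not given in the sources used here. The epithelial markers Epcam and Cdh1, by which colon carcinoma cells are usually known, had 0 reads in both libraries, while the keratin genes Krt18 and Krt20 were higher in shSetdb1 (log2 ratios 1.23 and 2.59) and Krt19 had 1 and 53 reads. Of 9 epithelial markers 3 reached 1 FPKM, namely Krt18, Krt20 and Krt19. Krt19 did so through shSetdb1 alone and so had to be higher. Lgals4, which stayed below 1 FPKM, went the other way with 28 and 23 reads. The list summed to 43.8 FPKM in shCtrl and 128 FPKM in shSetdb1, most of it from Krt18 and Krt20. The part of this list in the results below was not tested. Of 6 mesenchymal markers 5 reached 1 FPKM, led by Vim at 752 and 835 FPKM. Of these 5, 3 had a log2 ratio above 0 and 2 below it, Col1a2 (-0.56) and Col1a1 (-0.41). Pdgfra, among the 3, reached 1 FPKM through shSetdb1 alone and so had to be higher. Leukocyte markers summed to 0 and 4 reads, endothelial markers to 1 and 0 reads, and liver markers to 57 and 50 reads. The liver sums hold opposite differences, with Cps1 at 44 and 10 reads and Apoa1 at 13 and 36 reads. In bulk libraries such as these, fewer cells of a type and less RNA per cell cannot be told apart.

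Of the 8 genes, 6 reached 1 FPKM, and 4 of those 6 were at least 2-fold lower in shSetdb1. These were Gpt2, Pycr1, Asns and Aldh18a1, at 16.9% to 33.3% of their control level. Got1 was lower by less than 2-fold, and Glul was higher by less than 2-fold. The cysteine genes Cth and Cbs were below 1 FPKM in both libraries and were not counted, although Cth had 27 reads in shCtrl and 2 in shSetdb1. No member was at least 2-fold higher. Among the 10671 genes that reached 1 FPKM in at least 1 library, 4.85% were at least 2-fold lower and 6.81% at least 2-fold higher. All 6 members counted reached 1 FPKM in both libraries, so none entered through 1 group alone. Their median log2 ratio was -1.64, beside a median of -0.00039 and quartiles of -0.36 and 0.38 over all genes counted. An exact binomial test of the reads (two-sided, Benjamini-Hochberg over all genes counted) compares the libraries only. Its adjusted p was under 0.05 for all 6 members counted, with 6.87e-19 for Glul the largest, and for 74.5% of all genes counted.

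**Figure D1:**
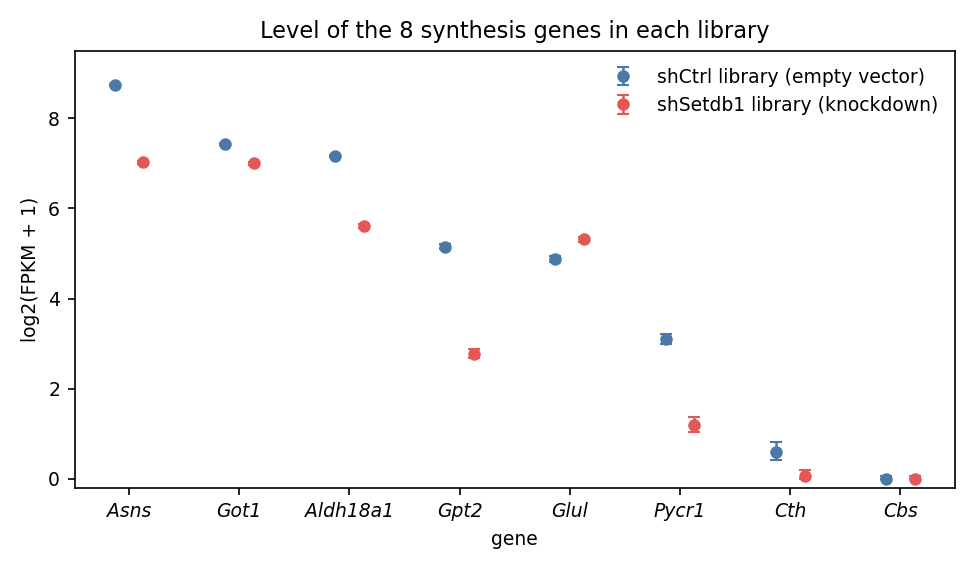
Level of each of the 8 genes, as log2(FPKM + 1) on the vertical axis, in shCtrl (blue) and the knockdown library (red); bars are 95% Poisson intervals of the reads, and the bar at Cbs is the limit that 0 reads allow. Asns, Aldh18a1, Gpt2 and Pycr1 are lower in shSetdb1, Glul is higher, and Asns and Got1 meet at 129 and 127 FPKM.

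**Figure D2:**
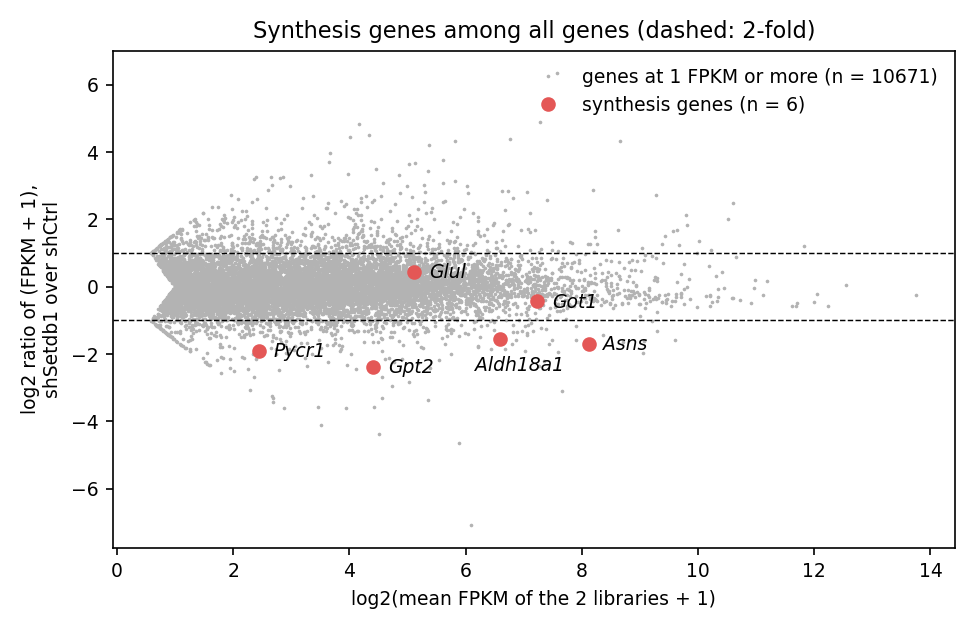
Log2 ratio of (FPKM + 1), shSetdb1 over shCtrl, against mean level for the 10671 genes reaching 1 FPKM in either library (grey) and the 6 synthesis genes among them (red); dashed lines mark 2-fold. Gpt2, Pycr1, Asns and Aldh18a1 lie below the lower line at levels from low to high, and Got1 and Glul lie between the lines.

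Asns encodes asparagine synthetase, which moves the amide nitrogen of glutamine onto aspartate. The gene (ENSMUSG00000029752) is protein-coding and sits on chromosome 6 (GRCm38, minus strand, 7675169 to 7693254). It had 21736 reads in shCtrl, a level of 424 FPKM (95% Poisson interval 419 to 430), and 6620 reads in shSetdb1, a level of 129 FPKM (126 to 132). Asns was the most abundant of the 8 in shCtrl, where it ranked 117th by level among the genes counted. In the knockdown library it ranked 457th. Its log2 ratio was -1.71, with a read ratio of 0.295 (0.287 to 0.303), the 100th lowest log2 ratio of all genes counted. No other locus of the table overlaps Asns or shares its protein match.

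Proline is made from glutamate in 2 steps, and both had a gene among the 4 that were lower. Aldh18a1 encodes pyrroline-5-carboxylate synthase, the mitochondrial enzyme of the first step, and Pycr1 encodes a mitochondrial pyrroline-5-carboxylate reductase, which carries out the last. Aldh18a1 (ENSMUSG00000025007, chromosome 19, minus strand, 40550257 to 40588463) was at 143 FPKM with 10881 reads in shCtrl and at 47.6 FPKM with 3628 reads in shSetdb1. Its log2 ratio was -1.56 and its read ratio 0.322 (0.311 to 0.335). The processed pseudogene Gm15801 lies within this gene on the same strand, with 43 and 20 reads. Pycr1 (ENSMUSG00000025140, chromosome 11, minus strand, 120635712 to 120643769) was at 7.61 FPKM with 561 reads against 1.29 FPKM with 95 reads. Its log2 ratio was -1.91, and its read ratio of 0.164 (0.130 to 0.204) corresponds to a larger difference, because the added 1 FPKM weighs on so low a level.

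Pycrl, also named Pycr3, encodes a cytosolic reductase of the same step. It was at 58.8 FPKM in shCtrl and 57.3 FPKM in shSetdb1, a log2 ratio of -0.037, and did not differ beyond counting error (exact binomial test, adjusted p = 0.141). Pycr1 was below it in both libraries and made up 11.5% of the summed FPKM of this pair in shCtrl (10.5% to 12.5%) and 2.20% in shSetdb1 (1.77% to 2.69%), or 27.5% and 6.20% of their reads. The ratio of Pycr1 to Pycrl was 5.75-fold lower in shSetdb1 (95% exact conditional interval 4.56 to 7.31), a comparison within each library that no scaling between libraries can move. Oat encodes ornithine aminotransferase, which links ornithine to the same intermediate that Aldh18a1 makes. It was at 59.7 FPKM in shCtrl and 79.2 FPKM in shSetdb1, a log2 ratio of 0.40. Aldh18a1 made up 70.5% of the summed FPKM of this pair in shCtrl and 37.5% in shSetdb1. As a share of reads, not per length, it was 80.5% and 50.9%.

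The enzymes of proline and asparagine breakdown had few reads. Prodh, which starts proline oxidation, had 9 reads in shCtrl and 12 in shSetdb1. Aldh4a1, which completes it, had 70 and 39 reads. The asparaginase gene Aspg had 0 reads in both, and Asrgl1 had 2 and 1. None of these 4 reached 1 FPKM in either library.

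Gpt2 encodes the mitochondrial alanine aminotransferase, which exchanges the amino group of glutamate with pyruvate to give alanine and 2-oxoglutarate. Gpt2 (ENSMUSG00000031700, chromosome 8, plus strand, 85492576 to 85527560) had the lowest log2 ratio of (FPKM + 1) of the 8, while its read ratio was close to that of Pycr1 and above that of Cth. It was at 34.6 FPKM with 3661 reads in shCtrl and at 5.86 FPKM with 619 reads in shSetdb1. Its log2 ratio was -2.38, with a read ratio of 0.164 (0.150 to 0.178), the 27th lowest log2 ratio of all genes counted. Gpt, the cytosolic isozyme, was at 2.61 FPKM (144 reads) and 3.38 FPKM (186 reads), a log2 ratio of 0.28. The counting interval of its read ratio (1.25) reached up to 1.56 and just held 1, so a difference in Gpt was not detectable at this depth (exact binomial test, adjusted p = 0.0664). Gpt2 made up 93.0% of the summed FPKM of the pair in shCtrl (91.8% to 94.0%) and 63.4% in shSetdb1 (59.5% to 67.3%). The ratio of Gpt2 to Gpt was 7.64-fold lower in shSetdb1 (6.01 to 9.72).

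Got1 encodes the cytosolic aspartate aminotransferase, which makes aspartate, the substrate of Asns, and takes part in the malate-aspartate shuttle. Got1 (ENSMUSG00000025190, chromosome 19, minus strand, 43499752 to 43524605) was at 172 FPKM with 8163 reads in shCtrl and at 127 FPKM with 6045 reads in shSetdb1. Its log2 ratio was -0.43 and its read ratio 0.716 (0.693 to 0.741), and 21.1% of the genes counted had a ratio as low or lower. Got2, the mitochondrial isozyme, stood at 90.5 FPKM in shCtrl and 115 FPKM in shSetdb1, a log2 ratio of 0.34. The share of Got1 in the pair was 65.5% (64.8% to 66.2%) in shCtrl and 52.6% (51.8% to 53.4%) in shSetdb1. The ratio of Got1 to Got2 was 1.71-fold lower in shSetdb1 (1.64 to 1.79). Of these isozyme pairs, Got1 and Gpt2 were thus lower in shSetdb1, Got2 was higher, and Gpt did not differ beyond counting error.

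Glul encodes glutamine synthetase, which joins ammonia to glutamate. It was the 1 member that was higher in shSetdb1. Glul (ENSMUSG00000026473, chromosome 1, plus strand, 153899944 to 153909723) was at 28.5 FPKM with 1773 reads in shCtrl and at 39.0 FPKM with 2427 reads in shSetdb1. Its log2 ratio was 0.44 and its read ratio 1.32 (1.24 to 1.41), and at percentile 77.6 of all genes counted it lay above the upper quartile. Teddm2 overlaps it on the other strand with 5 and 6 reads.

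Other enzymes of glutamine and glutamate use differed from each other in direction. Gls2, a liver-type glutaminase gene, was at 2.20 FPKM (143 reads) in shCtrl and 3.58 FPKM (233 reads) in shSetdb1, a log2 ratio of 0.52, and overlaps Spryd4, which had 384 and 347 reads. Glud1, which encodes glutamate dehydrogenase, was at 47.4 and 26.7 FPKM, a log2 ratio of -0.81. The pair of Aldh18a1 with Oat was chosen after its values were seen. No share was computed for Cth with Cbs, which leaves 4 pairs, and the intervals are not adjusted for their number.

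**Figure D3:**
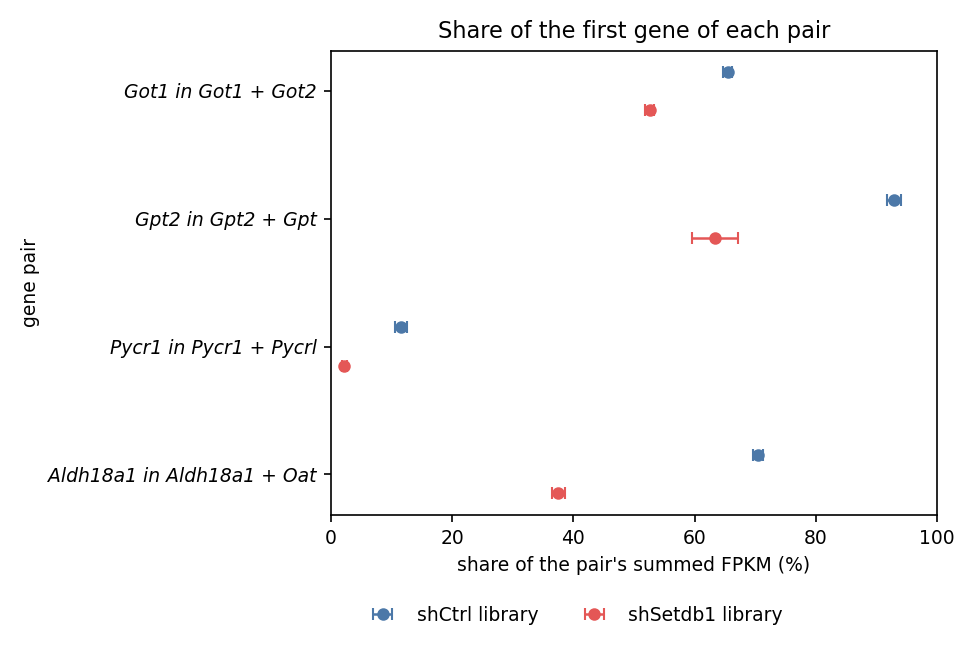
Share of the first gene in the summed FPKM of each of 4 gene pairs (horizontal axis, percent) in shCtrl (blue) and the knockdown library (red); bars are 95% exact binomial intervals of the reads. The share is lower in shSetdb1 for all 4 pairs shown, such as Gpt2 with Gpt (93.0% and 63.4%) and Pycr1 with Pycrl (11.5% and 2.20%).

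RNA of the cysteine synthesis genes was close to undetected. Cbs encodes cystathionine beta-synthase, which joins homocysteine and serine, and Cth encodes cystathionine gamma-lyase, which releases cysteine from the product. Cbs (ENSMUSG00000024039, chromosome 17, minus strand, 31612623 to 31637199) had 0 reads in both libraries, which allows up to 3 reads, or 0.0479 FPKM, in each. Cth (ENSMUSG00000028179, chromosome 3, minus strand, 157894248 to 157925077) had 27 reads (0.516 FPKM) in shCtrl and 2 reads (0.0383 FPKM) in shSetdb1. The read ratio of Cth was 0.0716 with an interval of 0.00826 to 0.285, and its log2 ratio of -0.55 is held near 0 by the added 1 FPKM. At this depth a difference in Cbs was not detectable.

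Slc7a11, the cystine transporter gene, was also low, at 1.05 FPKM (274 reads) in shCtrl and 0.0959 FPKM (25 reads) in shSetdb1, a read ratio of 0.0883 (0.0561 to 0.133). Of 19 genes of the methionine cycle and of cysteine use, 15 reached 1 FPKM. Among those 15, 2 were at least 2-fold lower and none was at least 2-fold higher, beside 4.85% and 6.81% of all genes counted. Whether these counts differ from the shares over all genes was not tested. The median log2 ratio of the 15 was -0.14. Mat2a, which encodes the enzyme that makes S-adenosylmethionine from methionine, had the lowest ratio of the list, at 58.9 FPKM in shCtrl and 15.9 FPKM in shSetdb1 (log2 ratio -1.83). Gclc, the catalytic subunit of the enzyme that commits cysteine to glutathione, was at 14.0 and 6.02 FPKM (-1.09). The highest ratio was that of Csad, whose product turns a cysteine oxidation product toward taurine, at 4.46 and 6.79 FPKM (0.51). Csad overlaps Zfp740, which had 4119 and 4922 reads.

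The order of the 8 genes by level per length differed between the libraries. In the control library it ran Asns, Got1, Aldh18a1, Gpt2, Glul, Pycr1, Cth and Cbs, with no overlap between the counting intervals of neighbours. In the knockdown library it ran Asns, Got1, Aldh18a1, Glul, Gpt2, Pycr1, Cth and Cbs. There the intervals of Asns (126 to 132 FPKM) and Got1 (124 to 130 FPKM) overlapped, as did those of Cth and Cbs. The 8 genes together took 46802 reads in shCtrl and 19436 reads in shSetdb1.

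Genes tied to ATF4 were read beside the members from a list of 26 regulators and targets that shares no gene with them. Of these, 25 reached 1 FPKM, and their median log2 ratio was -1.30. Among the 25, 17 were at least 2-fold lower and 1 was at least 2-fold higher in shSetdb1, against 4.85% and 6.81% of all genes. The list was written with earlier results of these data known, and whether its counts differ from those shares was not tested. Stc2, one of the 17, and Slc7a11 reached 1 FPKM through the control library alone and so had to be lower. Atf4 itself was at 479 FPKM in shCtrl and 178 FPKM in shSetdb1, a log2 ratio of -1.42. The lowest log2 ratio of (FPKM + 1) was that of Trib3, a pseudokinase that restrains ATF4 signalling, at 362 and 41.6 FPKM (-3.09). Without the added 1 FPKM, Slc7a11 was lower, with a read ratio of 0.0883 against 0.111 for Trib3. The other transcription factors past 2-fold were Atf5 (log2 ratio -1.98), Jdp2 (-1.30) and Ddit3 (-1.06). Chac1, whose product degrades glutathione, was at -2.00, and Ppp1r15a, whose product directs the dephosphorylation of the translation factor eIF2, at -1.38.

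The same list holds the serine and folate enzymes Aldh1l2 (log2 ratio -2.32), Shmt2 (-1.93), Mthfd2 (-1.76), Phgdh (-1.61), Psph (-1.29) and Psat1 (-1.15), and the amino acid transporters Slc7a5 (-2.21), Slc7a1 (-1.79) and Slc3a2 (-1.33). The hormone gene Stc2 was at -1.20. All were at least 2-fold lower, as were Asns, Aldh18a1, Gpt2 and Pycr1. The gene that was at least 2-fold higher was Ddit4, an inhibitor of mTORC1 signalling, at 45.3 FPKM in shCtrl and 117 FPKM in shSetdb1 (log2 ratio 1.35). ATF4 is controlled largely at translation, through kinases that phosphorylate eIF2, and these were measured as RNA only. Of the 4 kinase genes, 1 was higher by 2-fold or more, beside 6.81% of all genes counted. It was Eif2ak2, the interferon-inducible kinase PKR, at 1.46 FPKM in shCtrl and 4.35 FPKM in shSetdb1 (log2 ratio 1.12). The others were within 2-fold, with log2 ratios of 0.30 (Eif2ak3), -0.015 (Eif2ak4) and -0.11 (Eif2ak1). The median of the 4 was 0.14. That count was not tested against the share over all genes, and a link of these kinases to the ATF4 list was not tested. Atf5, Ddit3, Jdp2, Psph and Aldh1l2 are among the genes of the ATF4 list that overlap another gene with reads. Ddit3 overlaps Mars (6701 reads in shCtrl and 4085 in shSetdb1), Psph overlaps Cct6a (4137 and 3298), and Atf5 overlaps Nup62 (2859 and 4910). Aldh1l2 overlaps D10Wsu102e (1026 and 650), and Jdp2 overlaps Gm47863 (12 and 34).

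Aspartate is used by Asns and by several other enzymes. These were listed with the malate-aspartate shuttle and with related genes that need not use aspartate, such as Asl. Of the 13 genes of this list, 10 reached 1 FPKM (median log2 ratio 0.25), 1 at least 2-fold lower and 2 at least 2-fold higher. Over all genes counted, 4.85% were at least 2-fold lower and 6.81% at least 2-fold higher. The lower was Cad, which joins aspartate into pyrimidines, at 48.4 FPKM in shCtrl and 23.2 FPKM in shSetdb1 (log2 ratio -1.03). The higher were Asl, which encodes argininosuccinate lyase, at 9.09 and 23.3 FPKM (1.27), and Adssl1, which joins aspartate to inosine monophosphate, at 10.8 and 25.3 FPKM (1.15). This list thus held differences in both directions, and whether its counts differ from the shares over all genes was not tested.

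**Figure D4:**
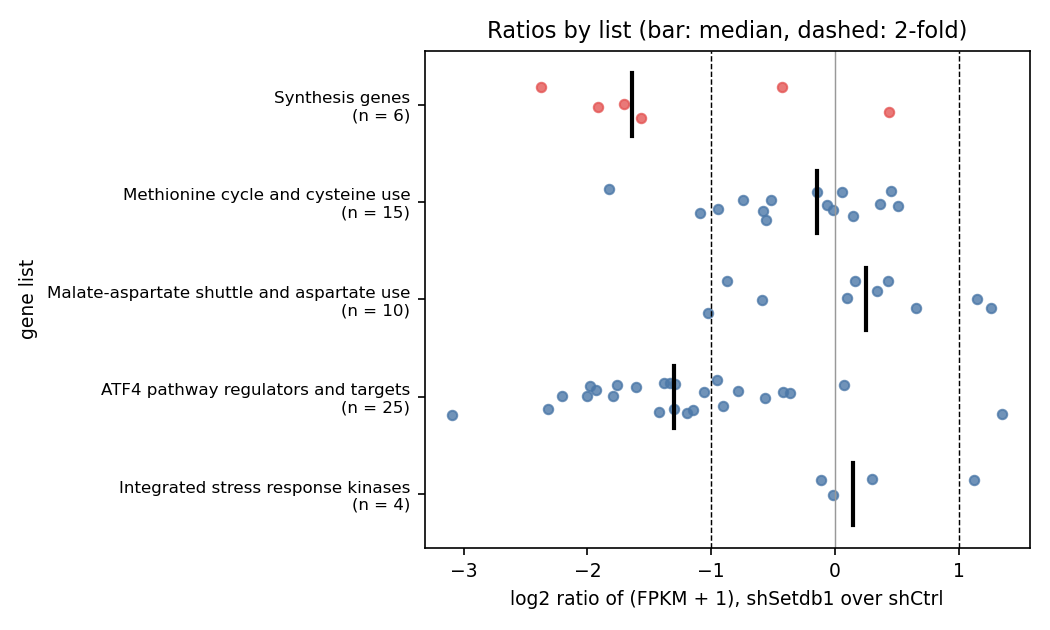
Log2 ratio of (FPKM + 1), shSetdb1 over shCtrl, of each gene reaching 1 FPKM in either library, for the synthesis genes (red) and 4 related lists (blue); black bars are medians and dashed lines mark 2-fold. The medians are -1.64 for the synthesis genes and -1.30 for the ATF4 list, and between -0.14 and 0.25 for the other lists.

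The bases before the start sites of the members that were at least 2-fold lower are shown because these genes differed in the same direction, and ATF4 with its C/EBP partners is known to bind an element that holds the letters TGATGNAA. Promoter sequences of the mouse reference, which need not match CT26 in every base, were taken from RefSeq (GRCm38.p6) and were found for 7 of the 8 members. TGATGNAA was searched on both strands over 250 bases before and 50 after each start, together with CACGTG, the E-box, which reads the same on both strands. TGATGNAA was present for 3 of the 7 members, Asns, Pycr1 and Got1, and for 4.51% of all 27025 genes with a promoter sequence (3.97% of 32851 promoters). CACGTG was present for Aldh18a1 and Cbs, and for 8.09% of those genes (7.15% of promoters). Trib3, Chac1 and Vldlr are shown from the ATF4 list for their ratios of -3.09, -2.00 and 0.0758. Vldlr did not differ beyond counting error (exact binomial test, adjusted p = 0.471), and its log2 ratio was -0.0064 with upper-quartile scaling. In the next 30-base stretches, read along the strand that holds the match, capitals mark TGATGNAA.
Asns: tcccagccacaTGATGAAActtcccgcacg
Pycr1: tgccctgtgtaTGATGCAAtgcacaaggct
Got1: ggaggcttgtaTGATGCAAccaatgcaatg
Trib3: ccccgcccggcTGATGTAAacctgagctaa
Chac1: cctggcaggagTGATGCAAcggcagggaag
Vldlr: gctaggagcgcTGATGCAActattgctgct

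The Asns stretch is chr6:7693214-7693243, read on the minus strand, and its match begins 23 bases before the RefSeq start, inside the annotated first exon of the longer gene model. The Pycr1 stretch is chr11:120643833-120643862, also on the minus strand, with the match 103 bases before the start. In Got1 (chr19:43524689-43524718) the match is on the strand opposite to the gene, here the plus strand. Trib3 (chr2:152344028-152344057, plus strand) and Chac1 (chr2:119351038-119351067, minus strand) also hold it opposite to the gene, as does Vldlr (chr19:27216809-27216838, minus strand). In the ATF4 list 7 of the 23 genes with a promoter sequence held TGATGNAA: Trib3, Chac1, Jdp2, Nupr1 (log2 ratio -0.78), Slc7a11, Vldlr and Atf3, the last with 1 and 2 reads. Of the members with a match, Asns and Pycr1 were past 2-fold lower and Got1 was lower by less. Of those without one, Gpt2 and Aldh18a1 were past 2-fold lower, Glul was higher, and Cbs had no reads. A match is a stretch of letters and not a measured binding site.

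The longer stretches that follow end at the RefSeq start or at the first annotated exon base, whichever comes first, and are written along the gene's own strand, with TGATGNAA or CACGTG in capitals. They are chr6:7693255-7693459, chr11:120643770-120643998 and chr19:40588464-40588713, all minus strand, and chr8:85492326-85492575, plus strand.
Asns: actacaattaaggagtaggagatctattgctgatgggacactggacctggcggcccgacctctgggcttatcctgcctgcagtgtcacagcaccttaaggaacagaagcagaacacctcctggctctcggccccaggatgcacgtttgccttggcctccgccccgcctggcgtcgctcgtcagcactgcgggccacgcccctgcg
Pycr1: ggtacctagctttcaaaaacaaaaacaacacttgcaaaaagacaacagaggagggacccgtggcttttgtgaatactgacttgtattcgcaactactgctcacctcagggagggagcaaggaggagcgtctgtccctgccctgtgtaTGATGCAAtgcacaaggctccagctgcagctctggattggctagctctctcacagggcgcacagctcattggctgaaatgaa
Aldh18a1: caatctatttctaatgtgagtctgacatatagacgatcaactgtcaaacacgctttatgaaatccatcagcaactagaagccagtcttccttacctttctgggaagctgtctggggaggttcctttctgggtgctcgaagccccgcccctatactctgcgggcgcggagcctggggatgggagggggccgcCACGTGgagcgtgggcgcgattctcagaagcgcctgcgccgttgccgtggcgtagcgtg
Gpt2: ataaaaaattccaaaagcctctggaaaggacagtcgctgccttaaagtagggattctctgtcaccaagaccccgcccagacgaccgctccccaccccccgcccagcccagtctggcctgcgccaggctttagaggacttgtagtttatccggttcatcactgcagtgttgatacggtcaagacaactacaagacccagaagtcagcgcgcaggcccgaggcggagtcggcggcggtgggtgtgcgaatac

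Pycr1 holds TGATGNAA and Aldh18a1 holds CACGTG in these stretches, and Gpt2, which had the lowest log2 ratio of the members, holds neither. The Asns stretch also holds neither, because it ends before the match shown above.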

How the data were processed

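RNA sequencing of 1 control and 1 knockdown library was analysed. The authors deposited FPKM values per gene with gene model lengths and positions. The submitters' processing notes name CASAVA, HISAT2, featureCounts 1.5.0-p3 and GRCm38; strand setting and scaling are not given in the sources used here. FPKM times length came out as whole multiples of 1 step for 100% of values above 0 in both libraries (tolerance 0.01), which gave reads. Both libraries had been divided by 1 depth, 18731117, so FPKM ratios carry the 1.03 ratio of the read totals.

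Log2 ratios of (FPKM + 1) were computed with a pseudocount of 1, and genes were counted reaching 1 FPKM in either library, past 2-fold. Of loci with the same symbol, the one with most reads was used. With 1 library per group no test between conditions was possible. Intervals (95%) are exact binomial, exact conditional for pairs, and Poisson for levels, and cover counting error only.

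The members, lists and motifs were chosen with earlier results of these data known. Named are the 8 members, Setdb1, the isozyme list (less 2 genes that are not reported here, so no count or median over that list is given), and of each other list the highest, the lowest and every gene past 2-fold; others were named after their values were seen. Alternatives were another pseudocount, 4 scalings, CPM, filters, thresholds, added loci, protein-coding genes only, read shares, means and an exact binomial test of reads. Software was scipy 1.17.1, numpy 2.4.6 and pandas 2.3.3 under Python 3.11.15, with statsmodels 0.14.6 for adjustment and matplotlib 3.10.9 for plots, and the code was tested on simulated data.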

Additional observations from a re-analysis of the deposited data

How the results depend on the processing

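Under the alternatives run for pseudocount, scaling, CPM and added loci, Gpt2, Pycr1, Asns and Aldh18a1 stayed at least 2-fold lower, Got1 stayed lower and Glul higher. Over those alternatives, 33 of 49 log2 ratios of the 7 members with reads stayed within the counting interval, 16 moved and 0 reversed. The exact binomial test of reads kept the direction of the 6 counted members. Its log2 ratios have no added pseudocount and are taken relative to each library's own read total. Those of Pycr1 (-2.61), Gpt2 (-2.61), Asns (-1.76), Aldh18a1 (-1.63) and Got1 (-0.48) lie below the intervals of the reported ones. For Asns, own read totals alone gave -1.76, while a pseudocount of 0.1 alone gave -1.71, within its interval. The 4-fold threshold left 1 member lower. The median log2 ratio of the members was -1.68 with own read totals, -1.72 with the upper quartile, -1.70 without the 100 highest genes, -1.69 on log2(CPM + 1) and -1.06 without a filter, which adds Cth and Cbs. Counts over all genes were 1134 higher and 870 lower with a pseudocount of 0.1, 1804 and 1523 at 1.5-fold, and 116 and 56 at 4-fold. Cth moved most of the 8, from a log2 ratio of -0.55 to -2.16 (0.1 as the pseudocount) and -1.16 (CPM in place of FPKM), each past 2-fold. Pycr1 went from -1.91 to -2.47 and -2.39 in the same order. As shares of reads, not per length, all 8 pair shares moved, and the share remained lower in shSetdb1 in each pair: Got1 was at 49.96% and 36.9%, Gpt2 at 96.2% and 76.9%, Pycr1 with Pycrl at 27.5% and 6.20%, and Aldh18a1 with Oat at 80.5% and 50.9%. The scaling of the ATF4 and other lists was tried after seeing the data, and no median of the 4 lists shown beside the members reversed with it. No paired analysis was possible because there was a single library in each group, which also left none to leave out. Depth limits the size of the difference in Cth, and any in Cbs.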

Other observations

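Some paralogs that handle aspartate or malate differed in opposite directions in these libraries, and the genes of this paragraph were chosen after their values were seen. Adss, which encodes the broadly expressed adenylosuccinate synthase, was at 18.9 FPKM in shCtrl and 9.91 FPKM in shSetdb1 (log2 ratio -0.87), while its paralog Adssl1, best known from muscle, was higher. Mdh2, the mitochondrial malate dehydrogenase, was at 256 and 170 FPKM (log2 ratio -0.59), and Mdh1, the cytosolic enzyme, at 53.0 and 83.8 FPKM (0.65). The paralogous aspartate-glutamate carriers Slc25a12 and Slc25a13 differed in the same direction, with log2 ratios of 0.43 and 0.34. Asl was higher in shSetdb1, while Ass1, which makes the substrate of Asl, had 0 reads in shCtrl and 1 in shSetdb1.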
